A study of Mus musculus with 18 samples.

Results

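Macrophages grown from the bone marrow of wild-type (WT) C57BL/6 mice were compared after polarization to M1 or to M2. Of the 18 RNA-seq libraries of the series, 6 make up the comparison, chosen by their labels: 3 WT M1 libraries and 3 WT M2 libraries. All 18 entered the fit, so the 12 others share in its estimate of the spread. The marrow cells matured over 7 days in M-CSF (10 ng/ml) and 10% serum. M1 cells then received LPS (100 ng/ml) together with interferon gamma (20 ng/ml), and M2 cells IL-4 (20 ng/ml), each over 18 h. The other 12 libraries are M1 and M2 macrophages lacking PGRN (6 libraries) or lacking 14-3-3e in myeloid cells (6 libraries), on the same strain. LPS and interferon gamma were given together, and unstimulated macrophages were not analysed here. A gene that is higher in M1 may therefore have been raised by either M1 stimulus or lowered by IL-4, and these cannot be told apart. Throughout, "rose" and "fell" describe M1 relative to M2.

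LPS is a component of the outer membrane of Gram-negative bacteria and is sensed by the receptor pair Tlr4 and Ly96 with the co-receptor Cd14, which act through Myd88 and Ticam1 on NF-kB and interferon regulatory factors. Interferon gamma acts through the kinases Jak1 and Jak2, while IL-4 acts through Il4ra on Stat6. In mouse macrophages the M1 stimuli are known for nitric oxide, itaconate and inflammatory cytokine production, and IL-4 for arginase, lectin receptors and the secreted proteins Retnla and Chil3.

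The 3 WT M1 libraries held 5157638 to 14518830 reads and the 3 WT M2 libraries 14190232 to 30584708. In the shallowest library, WT M1 replicate 1, a single read is worth 4.46 normalized counts, so values below that level are not resolved there. Correlations of log2 values between libraries were 0.912 to 0.941 within WT M1, 0.932 to 0.969 within WT M2 and 0.726 to 0.815 between M1 and M2. WT M1 replicate 2 spent 1.86% of its reads on genes resembling ribosomal RNA and WT M2 replicate 3 spent 14.55%, while the other 4 spent at most 0.205%. Replicate 1 of each group held both Xist and reduced Y-linked reads. Xist stood at 1302, 39.1 and 6.10 in M1, against 963, 52.6 and 2.06 in M2, and the Y-linked Ddx3y at 183, 628 and 628 in M1, against 350, 848 and 965 in M2. No source used here says whether libraries of 1 group are separate animals or separate dishes, so each p-value reflects the spread among these 6 libraries and the 12 others of the fit, which may be technical.

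Defining macrophage genes were read strongly in all 6 libraries. The 12 macrophage markers summed to 13200 to 21220 CPM (reads of a gene with every library scaled to the same total) in M1 and 7936 to 8244 in M2, and 8 of the 12 rose and 1 fell. The F4/80 gene Adgre1 stood at 24891, 45299 and 48609.6 normalized counts in WT M1, against 9255, 11966 and 11685 in WT M2. Csf1r, the M-CSF receptor, averaged 16716 ± 4255 in M1 and 21826 ± 2222 in M2 (SD, n = 3 each) and did not pass. Markers of other cells were present as well. The 12 stromal markers summed to 17170 to 29550 CPM in M1 and 18340 to 28830 in M2, with 5 higher and 2 lower, and the ranges of the groups overlap. T and NK cell markers summed to 10.9 to 15.1 CPM in M1 and 38.0 to 55.3 in M2, with Il7r the 1 of 12 that was lower (normalized counts of 156, 225 and 158 in M1, against 668, 835 and 1213 in M2) and 4 higher on few reads. The median log2 fold change of all 12 T and NK cell markers was 1.04. Sums were, for neutrophil markers, 299 to 454 in M1 and 174 to 463 in M2, and for B and plasma cell markers 131 to 242 in M1 and 87.3 to 204 in M2. The part of these other cells in the results was not tested. In such bulk samples fewer cells of a type and less RNA per cell cannot be told apart.

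A large share of the transcriptome differed between M1 and M2. With limma on log2 values and Benjamini-Hochberg adjustment over 21336 genes, 8303 (38.9%) passed an adjusted p of 0.05, called below. Of these 4029 were higher in M1 (18.9% of genes tested) and 4274 lower (20.0%). More than 2-fold were 1938 rises (9.08%) and 1661 falls (7.78%), and more than 16-fold 215 rises (1.01%) and 72 falls (0.337%). The very large changes were therefore mostly rises, although calls were about even. The split depends on scaling: with libraries scaled to their total reads, 2851 genes were called higher and 5487 lower, with a median over all genes of -0.19 in place of -0.04. Among calls, 7508 had 3 M1 and 3 M2 libraries that do not overlap (35.2% of genes tested). Protein-coding genes gave 3611 rises and 3944 falls, long intergenic RNAs 87 and 37 of 667 tested, and antisense RNAs 99 and 45 of 880 tested.

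**Figure D1:**
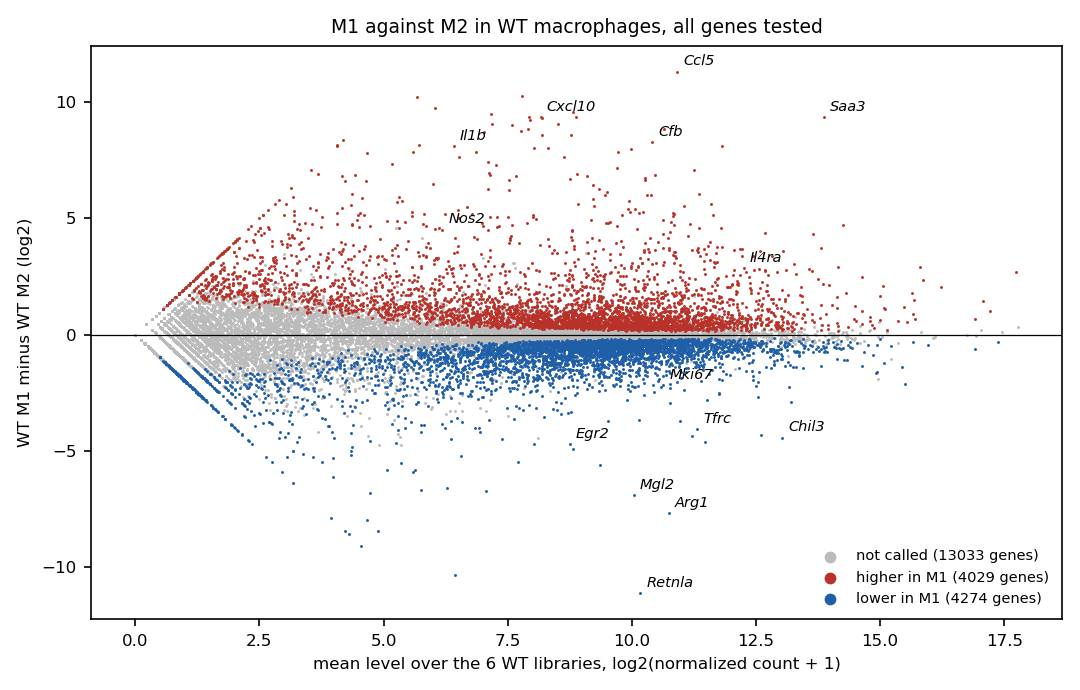
Each point is 1 of the 21336 genes tested, with its mean level over the 6 WT libraries on the horizontal axis, as log2(normalized count + 1), and WT M1 minus WT M2 (log2) on the vertical axis. The 4029 genes called higher in M1 are red and the 4274 called lower are blue, and rises reach further from 0 than falls do at mid to high levels.

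The rises included chemokine, interferon-induced and acute-phase genes. Ccl5, a chemokine that draws T cells and monocytes, had 114432, 83177 and 96819.9 normalized counts in WT M1, against 38.6, 15.1 and 86.6 in WT M2. Slfn4, a Schlafen gene of interferon-treated myeloid cells, had 6765, 8465 and 8156 in M1, against 6.65, 4.23 and 5.15 in M2, and Slfn1 of the same family had 6435, 5595 and 6723 in M1, against 7.98, 9.07 and 8.25 in M2. The PYHIN gene Ifi208, of a family that binds DNA or joins inflammasome-type complexes, had 1846, 2025 and 1896 in M1, against 1.33, 3.63 and 0 in M2, and its relative Ifi205 7728, 5097 and 5550.1 in M1, against 6.65, 9.07 and 12.4 in M2. Acod1, the enzyme that makes itaconate from a citric acid cycle intermediate, had 10497, 12844 and 12770.3 in M1, against 23.9, 10.3 and 20.6 in M2 (9.36 ± 0.28, adjusted p = 3.15e-13).

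The acute-phase gene Saa3 was among the most abundant messages of M1 cells by normalized count, with 468960.0, 281856 and 423107 in M1, against 572, 472 and 749 in M2 (9.35 ± 0.20, adjusted p = 4.68e-15). Ly6i, a small lipid-anchored surface protein, had 1975, 1424 and 1884 in M1, against 0, 0.605 and 1.03 in M2, on 2 reads in all M2 libraries. The membrane protein gene Ms4a4c had 13431, 11638 and 11969 in M1, against 19.96, 6.05 and 28.9 in M2 and the T cell chemokine gene Cxcl10 10542, 6291 and 5870.1 in M1, against 22.6, 4.84 and 9.28 in M2. Fpr2, a receptor for bacterial formyl peptides and for serum amyloid A, had 3581, 3249.9 and 3215 in M1, against 9.31, 3.02 and 5.15 in M2, and Siglece, an inhibitory receptor for sialic acid, 5021, 3859.9 and 4313 in M1, against 7.98, 8.47 and 6.18 in M2. Of the interferon-induced genes, Ifit1bl1 had 3211, 4805 and 3734 in M1, against 5.32, 2.42 and 6.18 in M2, Ifit3b 8401, 7224 and 6592 in M1, against 14.6, 7.26 and 11.3 in M2 and Oasl1 9088, 7921 and 8275 in M1, against 18.6, 19.4 and 9.28 in M2. These genes are the 15 largest rises among genes whose groups do not overlap, so their separation was fixed by that choice.

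The falls included genes known from IL-4 responses beside channel, adhesion and homeobox genes. Retnla, a secreted resistin-like protein, had 26.8, 51.1 and 9.14 normalized counts in WT M1, against 60803, 46921 and 55821 in WT M2 (-11.11 ± 0.56, adjusted p = 1.69e-09). Arg1, which splits arginine into ornithine and urea, had 143, 159 and 73.1 in M1, against 20598, 25006 and 28534 in M2 (-7.68 ± 0.41, adjusted p = 2.19e-09). Mgl2, a galactose-type lectin receptor, had 134, 105 and 60.96 in M1, against 14180.2, 10662 and 10096 in M2 (-6.91 ± 0.35, adjusted p = 6.11e-10). As with the rises, the 15 largest falls were taken from genes whose groups do not overlap. Rnase2a, of the eosinophil-associated ribonuclease family, had 4.46, 1.503 and 0 in M1, against 3560.4, 2758 and 3122 in M2, the adhesion protein gene Cdh1 (E-cadherin) 0, 3.01 and 0 in M1, against 335, 424 and 462 in M2 and the sodium channel gene Scn3a 0, 3.01 and 0 in M1, against 357, 766 and 593 in M2, each on 2 reads over the 3 M1 libraries.

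Another 4 genes had no read in any M1 library. Msx3, a homeobox gene of the embryonic neural tube, had 0, 0 and 0 in M1, against 422, 608 and 650.4 in M2. Chil4 is a chitinase-like gene nearly identical in sequence to Chil3, so that reads of the pair may have been divided between them. The other two are the tight-junction gene Cldn11 and the potassium channel gene Kcnd3. Setting 3 reads per M1 library as the floor, the falls were at least 62.2-fold for Msx3, 44.7-fold for Chil4, 38.9-fold for Cldn11 and 26.4-fold for Kcnd3. Further large falls were in the lipase gene Lipn (-6.58 ± 0.34), the microtubule-associated gene Map2 (-5.84 ± 0.70), the glycosyltransferase gene B3gnt7 (-5.83 ± 0.40) and Tmem26 (-5.603 ± 0.20), with a largest adjusted p of 5.94e-06. Impdh2-ps, a processed pseudogene whose reads can come from Impdh2, had 0, 15.03 and 0 in M1, against 549, 390.1 and 103 in M2.

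**Figure D2:**
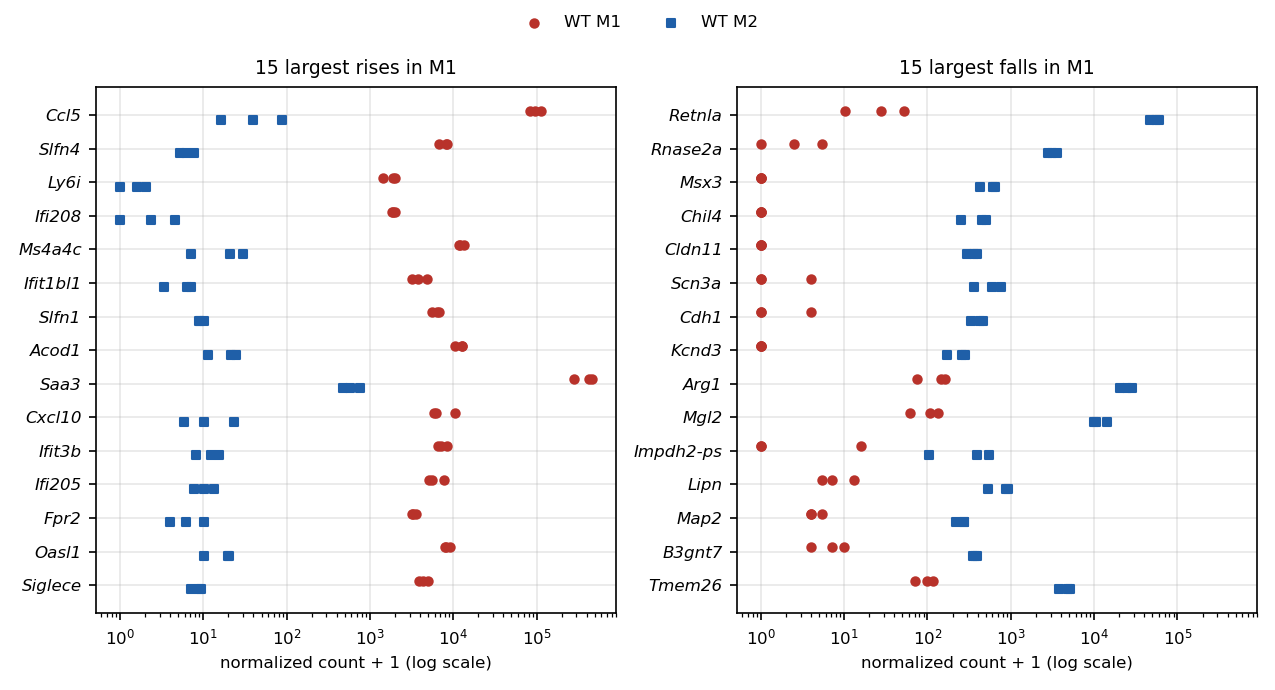
Normalized count + 1 (log axis) in each WT library for the 15 largest rises (left panel) and the 15 largest falls (right panel), with WT M1 libraries as red circles and WT M2 libraries as blue squares. Groups that do not overlap were a condition for choosing the 30 genes. Retnla averaged 28.99 in M1 and Ccl5 46.8 in M2.

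Promoters of these genes were read for short motifs of the factors that the stimuli are known to activate, and for the E2F form and CCAAT. Each window runs from 250 bases before to 50 after a RefSeq transcription start on GRCm38.p6, and capitals mark the motif. The first 3 windows belong to the 3 largest rises whose window holds the interferon-stimulated response element core, a pair of GAAA words with 2 bases between them, read on either strand, which interferon regulatory factors bind. Ifi208 lies at chr1:173673415-173673714 on the plus strand, Ifit1bl1 at chr19:34601919-34602218 on the minus strand and Saa3 at chr7:46715627-46715926 on the minus strand.
Ifi208: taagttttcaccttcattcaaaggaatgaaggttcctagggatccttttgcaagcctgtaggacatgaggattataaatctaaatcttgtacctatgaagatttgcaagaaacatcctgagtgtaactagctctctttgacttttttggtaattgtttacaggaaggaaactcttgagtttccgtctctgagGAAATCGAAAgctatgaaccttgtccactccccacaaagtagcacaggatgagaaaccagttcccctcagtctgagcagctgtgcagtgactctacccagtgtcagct
Ifit1bl1: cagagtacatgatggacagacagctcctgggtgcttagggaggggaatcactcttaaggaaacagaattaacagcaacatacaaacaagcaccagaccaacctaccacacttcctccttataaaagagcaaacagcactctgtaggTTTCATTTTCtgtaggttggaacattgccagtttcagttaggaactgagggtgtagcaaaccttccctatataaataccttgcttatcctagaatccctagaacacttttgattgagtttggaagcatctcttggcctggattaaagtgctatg
Saa3: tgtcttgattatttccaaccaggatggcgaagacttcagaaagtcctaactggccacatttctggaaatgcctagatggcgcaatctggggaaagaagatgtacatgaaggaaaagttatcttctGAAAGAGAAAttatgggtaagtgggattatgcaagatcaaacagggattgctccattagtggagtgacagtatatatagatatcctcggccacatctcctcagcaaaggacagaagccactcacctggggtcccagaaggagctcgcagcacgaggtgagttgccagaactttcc
In Ifi208 the core begins 58 bases before the start, in Ifit1bl1 104 bases before it and in Saa3 125 bases before it.

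The next 3 windows belong to the 3 largest falls whose window holds TTC and GAA with the spacer of 4 bases that Stat6 favours. Retnla lies at chr16:48842359-48842658, Tmem26 at chr10:68723496-68723795 and Itgax at chr7:128129300-128129599, all on the plus strand.
Retnla: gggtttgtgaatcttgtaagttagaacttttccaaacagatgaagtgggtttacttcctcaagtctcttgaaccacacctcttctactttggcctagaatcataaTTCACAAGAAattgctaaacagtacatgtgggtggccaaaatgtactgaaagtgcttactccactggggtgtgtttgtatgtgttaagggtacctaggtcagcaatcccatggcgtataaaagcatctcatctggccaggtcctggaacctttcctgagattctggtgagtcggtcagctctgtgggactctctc
Tmem26: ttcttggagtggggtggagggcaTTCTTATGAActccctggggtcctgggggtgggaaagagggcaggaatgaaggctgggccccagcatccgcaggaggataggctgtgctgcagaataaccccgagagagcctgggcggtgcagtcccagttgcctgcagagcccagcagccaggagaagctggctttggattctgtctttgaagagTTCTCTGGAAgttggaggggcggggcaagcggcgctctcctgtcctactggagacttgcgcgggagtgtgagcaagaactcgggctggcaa
Itgax: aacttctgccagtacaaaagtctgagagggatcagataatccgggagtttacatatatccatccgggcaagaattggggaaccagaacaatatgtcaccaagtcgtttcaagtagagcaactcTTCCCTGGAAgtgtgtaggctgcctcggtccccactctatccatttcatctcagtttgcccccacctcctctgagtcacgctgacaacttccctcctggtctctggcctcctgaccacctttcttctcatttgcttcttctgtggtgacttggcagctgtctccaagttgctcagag
The match begins 145 bases before the start in Retnla and 127 bases before it in Itgax, and Tmem26 has 2 matches, at 227 and 41 bases before the start. Of the rises printed above, the Ifi208 window also holds 1 match to this spacing, left there in lower case. A match is a description of these letters and does not show binding.

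Of 10952 genes of at least 5 CPM, 26.9% were called higher and 30.8% lower. The share of their windows with the interferon core had the widest spread between the groups. It was found in 33 of 78 windows (42.3%) of the 100 largest rises, 3 of 72 (4.17%) of the 100 largest falls and 286 of 8435 (3.39%) of all genes. For the spacing TTCNNNGAA, which most Stat factors bind and which overlaps other motifs only in part, shares were 16.7%, 6.94% and 6.66%. For the Stat6 spacing they were 10.3% in rises, 11.1% in falls and 5.30% in all genes. The kappa B form, GGG and TTTCC with 2 bases between them, was in 1.28% of rises, 1.39% of falls and 1.52% of all, the E2F form TTCCCGC in 2.56%, 9.72% and 8.74%, and CCAAT in 34.6%, 38.9% and 38.5%. All were read on both strands. Between 22 and 28 genes of each 100 had no window.

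Of 18 genes of the LPS receptor complex and its adaptors 10 were higher (55.56% beside 18.9% of all genes) and 4 lower (22.22% beside 20.0%, and 2 with the WT libraries fitted alone), with a median of 0.30. Over genes of at least 5 CPM the shares were 26.9% higher and 30.8% lower. Cd14, which hands LPS to the receptor, had 6323, 4587 and 5334 normalized counts in WT M1, against 693, 574 and 645 in WT M2 (3.08 ± 0.17, adjusted p = 1.72e-10), and Ly96, the LPS-binding partner of Tlr4, had 214, 252 and 219 in M1, against 89.1, 89.5 and 81.4 in M2 (1.39 ± 0.13, adjusted p = 2.52e-07). Tlr4 itself was lower, with 539.6, 768 and 735 in M1, against 861, 1104 and 1039 in M2 (-0.57 ± 0.13, adjusted p = 0.0025), and its groups do not overlap. The adaptor gene Myd88 (1.73 ± 0.07) and the kinase gene Irak2 (1.66 ± 0.09) rose, and so did Irak3, a kinase-dead brake on the pathway, with 1694, 2846 and 3054 in M1, against 193, 181 and 195 in M2 (3.69 ± 0.16). Among those lower was the inhibitory adaptor gene Tollip (-0.49 ± 0.06), while Ticam1 averaged 626 ± 64.2 in M1 and 705 ± 37.3 in M2 and did not pass.

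Most interferon signalling genes were higher in M1. In that list of 14 genes, 10 rose and 0 fell (median 0.58). Stat2, a factor of the type I interferon complex, had 7897, 9843 and 9281 normalized counts in WT M1, against 718, 757 and 678 in WT M2 (3.64 ± 0.12, adjusted p = 1.93e-13), and Irf9 of the same complex rose too (2.17 ± 0.08). Usp18, which removes ISG15 and blocks the type I receptor, had 12896, 10007 and 9625 in M1, against 179.6, 144 and 175 in M2. The receptor genes Ifnar2 (1.17 ± 0.07) and Ifngr2 (0.78 ± 0.09) rose by less, and the kinase gene Jak2 averaged 2557 ± 312 in M1 and 2229.8 ± 428 in M2 and did not pass. Socs1, the inhibitor of Janus kinases, had 1057, 484 and 466 in M1, against 596, 590.2 and 645 in M2, so WT M1 replicate 1 stands above the rest. Without it Socs1 was lower in M1 (-0.36, adjusted p = 0.0174).

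The chains of the IL-4 receptor were higher in M1, not in the IL-4-treated cells. Il4ra, the chain that binds IL-4, had 12615, 13015 and 13922 normalized counts in WT M1, against 1589.9, 1812 and 2048 in WT M2 (2.87 ± 0.12, adjusted p = 4.93e-12). Its partner chains Il2rg (2.61 ± 0.10) and Il13ra1 (1.45 ± 0.15) and the kinase gene Jak3 (1.42 ± 0.10) rose with it, within 6 rises and 2 falls among 11 genes (median 0.79). Stat6 averaged 3484 ± 592 in M1 and 3152 ± 179 in M2 and did not pass. The falls were Cish, an early Stat5 and Stat6 feedback gene, with 120.4, 143 and 125 in M1, against 1001, 874 and 1083 in M2 (-2.92 ± 0.14, adjusted p = 1.92e-11), and the insulin receptor substrate gene Irs2 (-1.86 ± 0.34), which the IL-4 receptor uses as an adaptor. Ptpn6, a phosphatase that restrains cytokine receptors, had 9409, 8644 and 10530.2 in M1, against 2213, 2037 and 2166.5 in M2 (2.15 ± 0.09). In the list the M1 and M2 libraries of all these called genes were separate, as were those of 7508 of the 8303 calls over all genes.

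Transcription factors divided between the states, with 18 higher (46.15%) and 14 lower (35.9%) of 39 (median 0.16). Of genes of at least 5 CPM 26.9% were higher and 30.8% lower. Irf7, the amplifier of type I interferon, had 61564, 55883 and 60639 normalized counts in WT M1, against 259, 169 and 229 in WT M2 (8.096 ± 0.20, adjusted p = 2.4e-14). Batf2, which acts with Irf1 in interferon gamma-treated macrophages, had 999, 651 and 731 in M1, against 51.9, 45.4 and 34.01 in M2, and Batf (2.78 ± 0.19), Irf1 (1.71 ± 0.13), the NF-kB subunit genes Relb (2.203 ± 0.13) and Nfkb2 (1.81 ± 0.08) and the factor gene Maf (1.397 ± 0.11) rose. Lower in M1 were the IL-4-induced Egr2, with 84.7, 81.1 and 82.3 in M1, against 2017, 2066 and 2567 in M2 (-4.72 ± 0.14, adjusted p = 5.07e-14), Klf4, with 107, 177 and 137 in M1, against 1166, 1572 and 1474 in M2, and Batf3, with 49.1, 18.03 and 27.4 in M1, against 597, 373 and 519 in M2. Pparg, which drives lipid genes in M2 cells, had 410.2, 449 and 411 in M1, against 1815, 1397 and 1639.8 in M2 (-1.92 ± 0.19, adjusted p = 3.69e-07). Myc (-1.503 ± 0.12), Bhlhe40 (-2.04 ± 0.09), Tfec (-1.81 ± 0.13) and Atf3 (-1.74 ± 0.14) fell, and Hif1a averaged 3140.1 ± 1145 in M1 and 2901 ± 284 in M2 and did not pass.

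**Figure D3:**
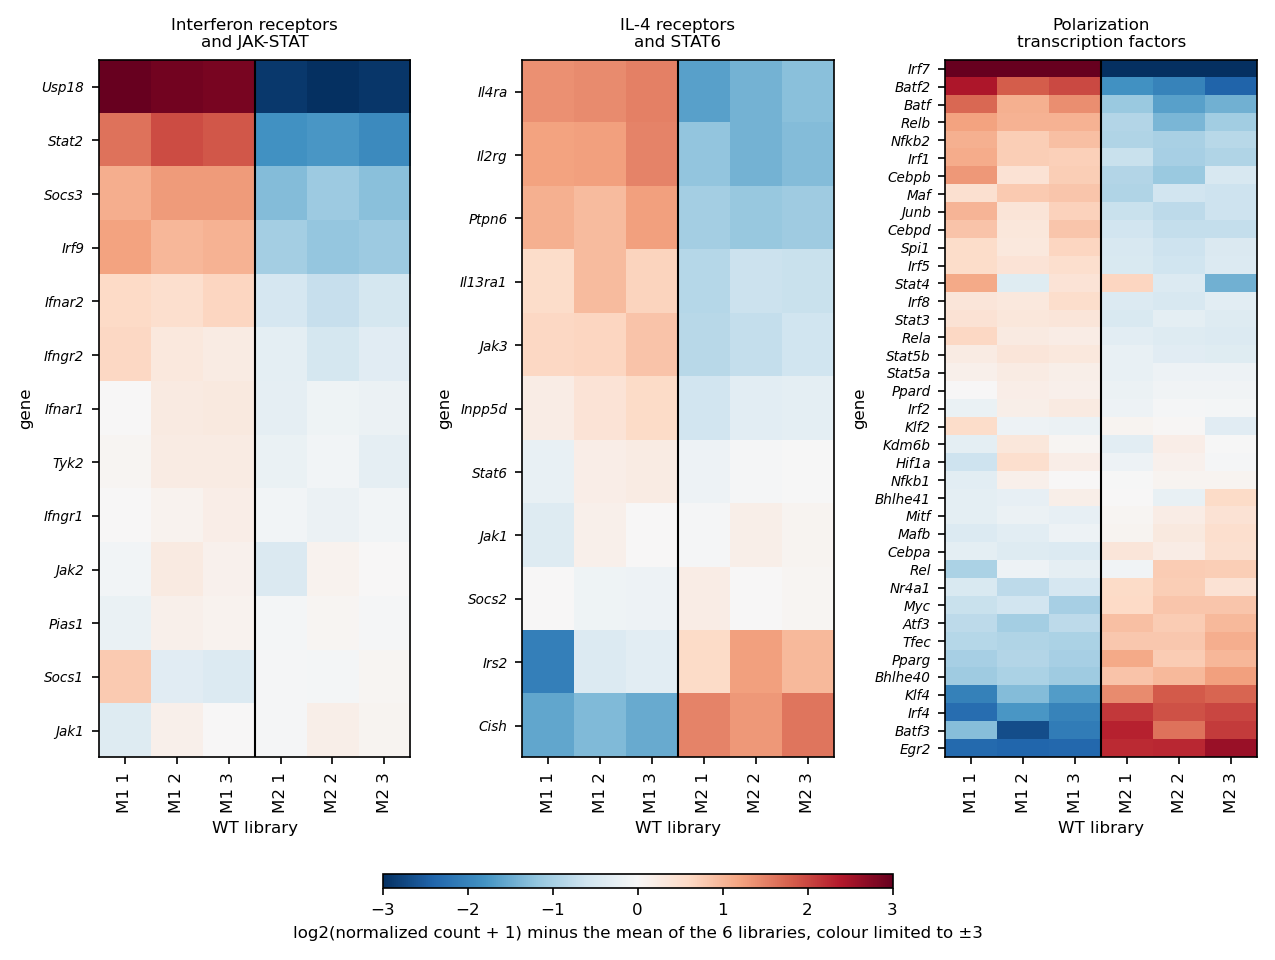
Colour gives log2(normalized count + 1) in each WT library minus the mean of the 6, limited to 3 in either direction, for 13 of the 14 interferon signalling genes, IL-4 receptor genes and transcription factors, with the 3 M1 libraries left of the 3 M2 libraries and genes ordered by their difference. Usp18, Il4ra and Irf7 are high in all M1 libraries, Cish and Egr2 in all M2 libraries, and Socs1 is high in WT M1 replicate 1 alone.

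Interferon effector genes rose with almost no exception. All 18 tested interferon-inducible GTPases, some of which attack vacuoles of intracellular microbes, rose, against 18.9% of all genes. Their median was 5.16, or 5.07 with a gene without M2 reads at its bound. Mx1, which blocks viral nucleocapsids, had 4794, 6274 and 6019 normalized counts in WT M1, against 31.9, 26.6 and 23.7 in WT M2, and Gbp2 had 11384, 11623 and 10277 in M1, against 371, 289 and 243 in M2. Igtp, a GTPase of the immunity-related family, had 9404, 7152 and 6257 in M1, against 196, 183 and 196 in M2 (5.28 ± 0.15). These genes took 0.350 to 0.398% of reads in M1 and 0.0157 to 0.0215% in M2. Of 32 antiviral effector and ISG15 genes, 31 rose and 0 fell (median 4.99), and the one that missed was Ifi44l, on very few reads. Ifit2, which binds viral RNA, had 13208, 16433 and 16369.8 in M1, against 129, 119 and 146 in M2 (6.86 ± 0.14). Cmpk2, a mitochondrial nucleotide kinase, had 10564, 10376 and 9168 in M1, against 65.2, 62.9 and 80.4 in M2, and Ifitm3, which hinders virus entry, 58857, 46220.2 and 52309.7 in M1, against 4619, 3743 and 3517 in M2. In each of these the groups are far apart.

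Sensors of nucleic acids followed, with 20 of 23 higher and 0 lower (median 1.75). Zbp1, a sensor of Z-form nucleic acid, had 13997, 11613 and 12889 in M1, against 134, 106 and 115 in M2 (6.75 ± 0.14). The RNA helicase genes Ddx58 (4.17 ± 0.10), Dhx58 (4.001 ± 0.09) and Ifih1 (3.49 ± 0.12) rose, while the DNA sensor Cgas averaged 191 ± 34.02 in M1 and 217 ± 28.1 in M2 and did not pass. Among 8 Schlafen genes 5 rose and 0 fell, with Slfn8 (4.66 ± 0.20), Slfn2 (2.73 ± 0.13) and Slfn5 (2.14 ± 0.50) beside the pair above. Of 13 PARP genes 8 rose and 1 fell: the interferon-induced mono-ADP-ribosyl transferases Parp14 (3.66 ± 0.11), Parp12 (3.295 ± 0.07) and Parp9 (3.09 ± 0.09) were higher, and Parp1, the DNA break sensor, was lower (-1.17 ± 0.12, adjusted p = 3.98e-07). In the Trim family 25 of 53 rose and 11 fell, or 6 fell with the WT libraries fitted alone. Trim30a (3.705 ± 0.08), Trim21 (2.65 ± 0.11) and Trim25 (1.399 ± 0.09), known for antiviral roles, were higher, and Trim37 (-1.505 ± 0.12) and Trim59 (-0.85 ± 0.14) lower. In the Ms4a family 10 of 13 rose and 1 fell, with Ms4a6b (5.82 ± 0.16), Ms4a6c (4.83 ± 0.12) and Ms4a7 (3.37 ± 0.08) higher. Several of these families are tandem copies with similar sequence, and the sources used here do not say how shared reads were assigned.

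MHC class I genes rose together. For class I presentation 20 of 22 genes rose and 0 fell (median 2.39). H2-K1, a classical class I heavy chain, had 185404, 133322 and 152214 normalized counts in WT M1, against 21932, 19404 and 21702 in WT M2 (2.89 ± 0.10, adjusted p = 3.65e-13), and B2m, its light chain, had 145432, 125910.0 and 130346 in M1, against 28005, 24721 and 26619.5 in M2 (2.34 ± 0.07). The peptide transporter gene Tap1 had 12695, 10342 and 10616 in M1, against 1006, 951 and 956 in M2, and the loading factor gene Tapbp 37252, 29485 and 31402 in M1, against 4782, 4120.2 and 4877 in M2. The chaperone genes Calr (30732 ± 2441 in M1 and 32703 ± 2204 in M2) and Pdia3 (17227 ± 283 in M1 and 17032 ± 417 in M2) did not pass. For class II, 4 of 16 genes rose (25% beside 18.9% of all genes) and 3 fell (18.75% beside 20.0%), with a median of -0.14. Over genes of at least 5 CPM the shares were 26.9% higher and 30.8% lower, both above those of class II. Ciita, the master activator of class II, had 8.92, 7.51 and 9.14 in M1, against 172, 119 and 127 in M2 (-3.86 ± 0.45, adjusted p = 3.02e-06). H2-Ab1 averaged 2407 ± 894 in M1 and 1966 ± 657 in M2, H2-Aa 1514 ± 589 in M1 and 1635 ± 618 in M2 and the invariant chain gene Cd74 10908 ± 4909.5 in M1 and 13333 ± 4930.4 in M2, and none of the 3 passed. March1, which removes class II from the surface, had 1070.2, 1309 and 1384 in M1, against 329, 308 and 391.7 in M2 (1.87 ± 0.12).

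Co-stimulatory and checkpoint ligands were mostly higher, 15 of 21, with 4 lower (median 1.51). Cd86, a ligand of Cd28, had 526, 473 and 363 in M1, against 69.2, 32.1 and 37.1 in M2 (3.34 ± 0.26, adjusted p = 1.73e-08), whereas Cd80 averaged 133 ± 26.5 in M1 and 133 ± 2.05 in M2 and did not pass. The ligands of the checkpoint receptor PD-1 went opposite ways: Cd274 (PD-L1) had 4892, 5478 and 5133 in M1, against 608, 808 and 944 in M2 (2.74 ± 0.13) and Pdcd1lg2 (PD-L2) had 40.1, 28.5 and 18.3 in M1, against 487, 516 and 559.7 in M2 (-4.19 ± 0.23). The adhesion gene Icam1 (3.08 ± 0.16) rose, and Cd83 (-2.55 ± 0.40) and the inhibitory receptor gene Cd200r1 (-1.24 ± 0.13) fell.

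Chemokines rose, with a separate set higher in M2. Of 12 CXC and CX3C chemokines 11 rose and 1 fell (median 3.81), and the fall, in Cx3cl1, was lost without any single library but WT M1 replicate 2. Cxcl9, a Cxcr3 ligand like Cxcl10, had 11375, 9096 and 6205 normalized counts in WT M1, against 26.6, 24.8 and 14.4 in WT M2 (8.60 ± 0.55, adjusted p = 2.16e-08), and Cxcl16 had 10903, 8190.2 and 9329 in M1, against 802, 671 and 669 in M2. The neutrophil attractants Cxcl2 (4.91 ± 0.46) and Cxcl1 (3.46 ± 0.41) rose on low values. Cxcl12 (1.18 ± 0.25) is itself one of the stromal markers given above, and the part of stromal RNA in its rise was not tested. Among 15 CC chemokines 8 rose and 3 fell (median 1.53, or 0.75 with a gene without M2 reads at its bound). Ccl3 and Ccl4, which draw monocytes and T cells, were higher, Ccl4 with 7817, 4835 and 4578 in M1, against 337, 280.0 and 319.5 in M2. The 3 falls were Ccl24, which draws eosinophils, with 8.92, 13.5 and 24.4 in M1, against 839.5, 459.6 and 502 in M2 (-5.23 ± 0.35, adjusted p = 2.22e-09), and the Ccr4 ligands Ccl22 (-3.18 ± 0.65) and Ccl17, at 4.46, 3.01 and 6.096 in M1, against 27.9, 12.7 and 16.5 in M2, whose call was lost with reads thinned to equal depth.

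Cytokine genes were higher for 15 of 25 and lower for 1 (median 2.55). Il1b, the fever cytokine, had 2060.2, 1261 and 1103 normalized counts in WT M1, against 5.32, 2.42 and 5.15 in WT M2 (8.12 ± 0.28, adjusted p = 3.65e-13), and Tnf had 2042, 1974 and 2197 in M1, against 73.2, 95.6 and 121 in M2. Ebi3, a subunit of IL-27 and IL-35, had 3781, 3016 and 3261 in M1, against 269, 253 and 208 in M2, Il15 611, 449 and 418 in M1, against 53.2, 59.9 and 60.8 in M2 and Il18 392.4, 234 and 265 in M1, against 58.5, 45.96 and 43.3 in M2. Il1rn, the secreted antagonist of IL-1, had 28418, 26540.3 and 20938 in M1, against 4565, 3654 and 4131 in M2, so agonist and antagonist rose together. Ifnb1 averaged 42.00 normalized counts in M1 and had no read in M2, which is at least 14.2-fold higher. Csf1, which encodes M-CSF, was the fall (-0.49 ± 0.12, adjusted p = 0.00302). Growth factors leaned the other way, with 2 of 17 higher and 7 lower (median -0.58). Igf1, a wound-repair and growth factor of M2 cells, had 1182, 1507 and 1685 in M1, against 7328, 8220.5 and 9286 in M2 (-2.51 ± 0.15, adjusted p = 5.13e-10), and Pdgfa 1048, 729 and 503 in M1, against 1962, 2396 and 1939 in M2. Vegfa rose (1.15 ± 0.12), and Tgfb1 averaged 5665 ± 363 in M1 and 5388 ± 205 in M2 and did not pass.

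Among 18 receptors for chemokines and other migration cues 10 rose and 2 fell (median 0.82). Fpr1, a formyl peptide receptor like Fpr2, had 5347, 5774 and 5946 in M1, against 21.3, 13.3 and 9.28 in M2, and Ccrl2, a chemerin-binding receptor, had 535, 399.7 and 418 in M1, against 75.8, 60.5 and 63.9 in M2 (2.73 ± 0.15). Cx3cr1 rose (3.07 ± 0.38), Cxcr4 fell (-0.92 ± 0.18), and Ccr2, the monocyte receptor for Ccl2, averaged 420.5 ± 23.6 in M1 and 431 ± 85.3 in M2 and did not pass.

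Pattern and clearance receptors went both ways. Of 21 C-type lectin receptors 7 rose and 7 fell (33.33% each, median 0.01). Among genes of at least 5 CPM 26.9% were higher and 30.8% lower, and among all genes tested 18.9% and 20.0%. Clec4e (Mincle), a receptor for mycobacterial glycolipid, had 3648, 4437 and 4752 normalized counts in WT M1, against 13.3, 15.1 and 17.5 in WT M2 (8.03 ± 0.15, adjusted p = 1.17e-15), with its neighbours Clec4d (3.396 ± 0.17) and Clec4n (5.14 ± 0.30). Mrc1, the mannose receptor, had 919, 1617 and 1819.5 in M1, against 21064, 32266 and 31136 in M2 (-4.31 ± 0.28, adjusted p = 7.23e-09), and the fungal glucan receptor gene Clec7a had 276, 331 and 338 in M1, against 3969, 3776 and 4419.6 in M2. Clec10a fell as well (-4.94 ± 0.32). Scavenger and clearance receptors gave 8 rises (33.33%) and 7 falls (29.17%) of 24 (median 0.12), and 7 and 9 when scaled by library totals. Marco, which binds bacteria and particles, had 5480.3, 4339 and 4020.1 in M1, against 13.3, 5.44 and 11.3 in M2 (8.78 ± 0.42, adjusted p = 2.25e-10), while the haptoglobin-haemoglobin receptor gene Cd163 had 13.4, 13.5 and 12.2 in M1, against 251, 241 and 145 in M2 (-3.89 ± 0.36, adjusted p = 1.71e-07). The lipid receptor genes Cd36 (-2.203 ± 0.22) and Trem2 (-1.402 ± 0.14) fell, Msr1 (2.14 ± 0.14) and Axl (1.02 ± 0.11) rose, and Cd68 averaged 15986 ± 3204 in M1 and 17685 ± 844 in M2 and did not pass.

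Fc receptor genes were higher for 5 of 9 and lower for 2 (median 0.89). Fcgr1, the high-affinity IgG receptor, had 22189, 20032 and 22344 in M1, against 434, 441 and 438 in M2, and Fcgr4 12392, 10496 and 10756 in M1, against 355, 275 and 296 in M2. Fcer1g, their signalling chain, rose (2.19 ± 0.08), Fcgr3 fell (-0.63 ± 0.11) and the inhibitory Fcgr2b rose slightly (0.53 ± 0.11). In the Cd300 family of lipid-binding receptors 2 of 12 rose and 5 fell, with Cd300lb at 419, 687 and 863 in M1, against 4442, 5071 and 4902 in M2 (-2.93 ± 0.19) and Cd300e, higher, at 147, 197 and 210.3 in M1, against 7.98, 5.44 and 3.09 in M2.

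Complement genes were higher for 14 of 19 and lower for 3 (median 1.53). Cfb, the protease of the alternative pathway, had 24838, 16444 and 32895 normalized counts in WT M1, against 82.5, 71.4 and 75.2 in WT M2 (8.27 ± 0.31, adjusted p = 2e-11), and C3, the central component, had 10894, 12274 and 14419 in M1, against 1169, 849.7 and 750.3 in M2. Cd55, which protects cells from complement, had 905, 1129.9 and 1125 in M1, against 49.2, 29.6 and 19.6 in M2. Falls included those in Itgax, the CD11c integrin chain, with 491, 475 and 609.6 in M1, against 10386, 10269 and 11672 in M2 (-4.36 ± 0.15, adjusted p = 2.95e-13), and in Vsig4, whose call was lost without any of the WT libraries but M1 replicate 2. Coagulation and fibrinolysis genes leaned lower, with 2 of 16 higher and 7 lower (median -0.33): F13a1, which cross-links fibrin, had 348, 604 and 582 in M1, against 2682, 3309 and 2993 in M2, and F7 (-1.86 ± 0.14), Plau (-1.39 ± 0.21) and its receptor gene Plaur (-1.73 ± 0.25) fell, while Procr, the protein C receptor, rose (2.64 ± 0.19).

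Secreted acute-phase, chitinase-like and ribonuclease genes included some of the most extreme changes in both directions, with 6 of 17 higher and 6 lower (35.29% each, median 0.29). Beside these shares, 26.9% of genes of at least 5 CPM were higher and 30.8% lower. Lcn2, which withholds iron by binding bacterial siderophores, had 13208, 10856 and 13429 normalized counts in WT M1, against 208, 117 and 73.2 in WT M2 (6.67 ± 0.48, adjusted p = 7.56e-08). Hp, haptoglobin, had 70620.2, 55959.5 and 54644 in M1, against 12344, 10346 and 9998 in M2, and Slpi, a protease inhibitor, 2756, 1968 and 2892 in M1, against 400.5, 161 and 182 in M2. Chil3, the Ym1 protein, had 2252, 1747 and 1487 in M1, against 39454, 35871 and 41852 in M2 (-4.43 ± 0.32, adjusted p = 4.96e-08), and the ribonuclease gene Ear2 had 26.8, 18.03 and 12.2 in M1, against 427, 202 and 243 in M2.

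RNA of arginine enzymes and carriers differed in both directions. Nos2, which makes nitric oxide from arginine, had 348, 368 and 326 normalized counts in WT M1, against 31.9, 13.9 and 6.18 in WT M2 (4.51 ± 0.47, adjusted p = 1.22e-06), opposite to the fall of Arg1 above. Gch1, which makes the cofactor of Nos2, had 1382, 992 and 1179.5 in M1, against 141, 122 and 147 in M2 (3.096 ± 0.16), and Ass1, which regenerates arginine from citrulline, had 1574, 1328 and 1639.7 in M1, against 322, 234 and 203 in M2 (2.598 ± 0.22). The arginine importers Slc7a2 (-1.99 ± 0.21) and Slc7a1 (-1.53 ± 0.13) fell, as did the polyamine enzyme gene Srm (-1.304 ± 0.10), while Odc1, which makes putrescine, averaged 2328 ± 498 in M1 and 2528 ± 175 in M2 and did not pass. In the list 7 of 18 rose (38.89%) and 6 fell (33.33%), with a median of 0.004, beside 26.9% and 30.8% of genes of at least 5 CPM. There were 4 rises with the WT libraries fitted alone, 4 and 6 when scaled by library totals, 5 and 8 without WT M1 replicate 1 and 5 and 6 without WT M2 replicate 2. Arg2, the mitochondrial arginase, rose on low values, with 98.1, 102 and 97.5 in M1, against 5.32, 8.47 and 20.6 in M2. Among other amino acid enzymes and carriers 3 of 17 rose and 8 fell (median -0.57). Next to Acod1, the rises included the amino acid transporter chain Slc3a2 (0.58 ± 0.10), and the falls the serine synthesis genes Psat1 (598, 646 and 543 in M1, against 2395, 2489 and 2575 in M2) and Phgdh (-1.14 ± 0.15) and the phenylalanine oxidase gene Il4i1 (-3.17 ± 0.22).

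Oxidant-handling genes rose for 11 of 15 and fell for 1 (median 1.04). Sod2, the mitochondrial superoxide dismutase, had 21716, 13958 and 16666 in M1, against 1438, 1243 and 1296 in M2, and Prdx5, a peroxiredoxin, 36654, 21325 and 29039.6 in M1, against 4102, 2975 and 3318 in M2. Cybb, the catalytic subunit of the phagocyte NADPH oxidase, had 10033, 14568 and 18153 in M1, against 2586, 2854 and 3170.4 in M2 (2.27 ± 0.18, adjusted p = 3.51e-08), and its cytosolic partner gene Ncf1 rose (1.59 ± 0.15). Catalase (Cat) fell (-0.61 ± 0.13, and -0.39 without WT M1 replicate 1). NRF2 antioxidant genes were higher for 9 of 17 and lower for 3 (median 0.75), with Hmox1, which degrades heme, at 33778, 31448 and 35659 in M1, against 6957, 7386 and 9013 in M2 (2.12 ± 0.14) and Gclc, the glutathione synthesis gene, lower (-1.39 ± 0.19).

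Glycolysis and lactate genes rose for 12 of 25 and fell for 3 (median 0.14), and for 9 and 7 when scaled by library totals. Pfkfb3, which makes the activator of phosphofructokinase, had 2221, 3351 and 2905 normalized counts in WT M1, against 802, 948 and 954 in WT M2, and the lactate exporter gene Slc16a3 had 3162, 3149 and 2798 in M1, against 1821, 1577 and 1513 in M2 (0.89 ± 0.11). Pkm rose (0.56 ± 0.07), Pfkp fell (-1.23 ± 0.08), and the lactate dehydrogenase gene Ldha averaged 25012 ± 3104 in M1 and 24564 ± 2014 in M2 and did not pass. TCA cycle genes fell for 17 of 26 and rose for 2 (median -0.38). The isocitrate dehydrogenase genes Idh3a, with 562, 658 and 582 in M1, against 1305, 1217 and 1343 in M2 (-1.102 ± 0.08, adjusted p = 9.32e-09), and Idh2, with 1378, 1396 and 1487 in M1, against 2730.1, 2533 and 2605 in M2 (-0.88 ± 0.07), and the fumarase gene Fh1 (-0.83 ± 0.09) were among them. Sdhb, of succinate dehydrogenase, rose (0.43 ± 0.10), but not when scaled by library totals or with the WT libraries fitted alone, while Sdha fell (-0.38 ± 0.07). Fatty acid oxidation genes fell for 10 of 22 and rose for 3 (median -0.31), with Hadhb (-0.79 ± 0.11) and Etfdh (-0.65 ± 0.10) lower. Respiratory chain subunits showed 13 rises (16.05%) and 11 falls (13.58%) of 81 (median 0.11), below the 18.9% and 20.0% of all genes tested. Among genes of at least 5 CPM the shares were 26.9% and 30.8%. With the WT libraries fitted alone the subunits showed 4 and 5, where 2632 and 2570 of 21080 genes passed. Scaled by library totals they showed 6 and 17. A single library sets their balance, with 9 rises and 16 falls without WT M1 replicate 1, 37 rises without WT M1 replicate 2, and 8 and 13 without WT M2 replicate 2. The complex V genes Atp5b (-0.56 ± 0.07) and Atp5a1 (-0.61 ± 0.06) fell, and Ndufa4l2 (2.503 ± 0.22) and Cox4i2 (1.87 ± 0.26), variant subunits known from low oxygen, rose. In the pentose phosphate list 2 of 8 rose (25%) and 3 fell (37.5%), beside 26.9% and 30.8% of genes of at least 5 CPM. With the WT libraries fitted alone the counts were 0 and 1. Tkt was lower (-0.79 ± 0.12), and leaving out any single library changed 1 count or both.

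Lipid synthesis genes were lower in M1. Cholesterol synthesis genes fell for 21 of 25 and rose for 1 (median -1.37). Idi1, which isomerizes the isoprenoid building block, had 366, 304 and 363 normalized counts in WT M1, against 1510.1, 1007 and 1192 in WT M2 (-1.83 ± 0.18, adjusted p = 3.95e-07). The rise was Insig2, which holds the sterol sensor in the ER (0.49 ± 0.10, and 0.32 when scaled by library totals). Fatty acid synthesis and desaturation genes fell for 11 of 17 and rose for 2 (median -0.66): Fasn had 633, 886 and 859 in M1, against 3343, 4264 and 3991 in M2 (-2.29 ± 0.15, adjusted p = 1.71e-09), Scd2 2639.8, 4109 and 3752 in M1, against 11277, 10806 and 9765 in M2 and Acaca fell (-1.12 ± 0.15), while the acyl-CoA synthetase gene Acsl1 rose, with 2756, 4284 and 4432 in M1, against 653, 865 and 801 in M2 (2.28 ± 0.20). Cholesterol efflux and lipid handling genes gave 9 rises and 9 falls of 22 (40.91% each, median -0.07), beside 26.9% and 30.8% of genes of at least 5 CPM. Gpr84, a receptor for medium-chain fatty acids, had 1601, 1887 and 1981 in M1, against 18.6, 7.26 and 6.18 in M2 (7.43 ± 0.30), and Nr1h3 (LXR alpha) rose (3.04 ± 0.14), whereas the LXR target Abcg1 fell (-0.72 ± 0.09), as did the lipase genes Lpl (-1.64 ± 0.12) and Lipa (-1.38 ± 0.14), and Abca1 averaged 1421 ± 419 in M1 and 1119 ± 271 in M2 and did not pass.

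Iron genes went both ways, with 8 of 20 higher (40%) and 7 lower (35%), beside 26.9% and 30.8% of genes of at least 5 CPM. The median was 0.06. Fth1, the ferritin heavy chain, had 661895, 459995 and 567832 normalized counts in WT M1, against 90125, 72465 and 99800.3 in WT M2 (2.68 ± 0.12, adjusted p = 1.1e-11). Tfrc, the transferrin receptor, had 522, 669 and 689 in M1, against 9481, 10397 and 11302 in M2 (-4.06 ± 0.13, adjusted p = 1.93e-13). Slc11a1, which pumps metal out of phagosomes, had 8365, 9176 and 11015 in M1, against 1268, 951 and 1084 in M2 (3.11 ± 0.11). The exporter gene Slc40a1 averaged 230.0 ± 17.5 in M1 and 213 ± 16.6 in M2 and Ftl1 257167 ± 63542 in M1 and 200788 ± 25284 in M2, and neither passed. Among metallothionein and zinc transport genes 2 of 10 rose, Mt2 (1.73 ± 0.21) and Slc39a1 (0.601 ± 0.07), and 2 fell, shares near the 18.9% and 20.0% of all genes.

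Lysosomal genes rose for 16 of 32 (50%) and fell for 8 (25%), beside 26.9% and 30.8% of genes of at least 5 CPM (median 0.24). Counts were 13 and 11 when scaled by library totals, with 3 falls with the WT libraries fitted alone and 5 falls without WT M2 replicate 3. The lysosomal genes took 3.67 to 4.21% of reads in M1 and 3.82 to 4.14% in M2, ranges that overlap. Ctsc, a cathepsin that activates granule proteases, had 19402, 24852 and 25032 in M1, against 3639, 3395 and 3112 in M2 (2.76 ± 0.13, adjusted p = 2.04e-11), and Gusb had 4865, 4683 and 5517 in M1, against 10808, 10234 and 12015 in M2 (-1.13 ± 0.09). Unfolded protein and integrated stress response genes rose for 5 of 22 (22.73%) and fell for 9 (40.91%), with a median of -0.10. With the WT libraries fitted alone they rose for 2 and fell for 5, where 2632 and 2570 of 21080 genes passed. Ddit3 (CHOP) had 4531, 2302 and 2743 in M1, against 745, 642 and 668 in M2 (2.16 ± 0.18), and the ER isomerase gene Pdia4 3857, 4894 and 4212 in M1, against 10454, 12365 and 12698 in M2 (-1.46 ± 0.09).

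Matrix and adhesion genes were mixed. Matrix proteases and inhibitors gave 8 rises (33.33%) and 10 falls (41.67%) of 24 (median -0.12), and 8 and 7 without WT M1 replicate 1 or without WT M2 replicate 2. The shares were 26.9% higher and 30.8% lower among genes of at least 5 CPM, and 18.9% and 20.0% among all genes tested. Mmp25 had 84.7, 258 and 213 in M1, against 1.33, 1.21 and 2.06 in M2, Timp1 43259, 27566 and 26117 in M1, against 6450.1, 5819 and 5987 in M2 and Mmp12, the macrophage elastase, 3893, 3262 and 3334 in M1, against 27214, 20876 and 30425 in M2 (-2.89 ± 0.15, adjusted p = 5.36e-11). Fn1, fibronectin, fell (-1.60 ± 0.24), and Spp1 averaged 68148 ± 3573 in M1 and 74558 ± 12932 in M2 and did not pass. Stromal RNA at the levels given above was in both groups, and its part in these genes was not tested. Of 25 integrin and adhesion genes 8 rose (32%) and 7 fell (28%), with a median of 0.12, and 7 and 8 when scaled by library totals. The 32% and 28% are near the shares among genes of at least 5 CPM. Itgal (3.31 ± 0.31) and Itgam (1.904 ± 0.23) were higher and Cd44 (-1.89 ± 0.12) and Cd9 (-1.55 ± 0.11) lower. Osteoclast and cell fusion genes gave 5 rises and 5 falls of 14 (35.71% each, median -0.21), with 3 rises without WT M1 replicate 3. Atp6v0d2, a proton pump subunit, had 499, 500.3 and 671 in M1, against 7378, 6410.4 and 8389 in M2 (-3.73 ± 0.11). The fusion gene Ocstamp had 53.5, 66.1 and 97.5 in M1, against 785, 544 and 579 in M2, while Acp5 rose (1.62 ± 0.21).

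Lipid mediator and nucleotide signalling genes went both ways. Of 20 eicosanoid genes 6 rose (30%) and 7 fell (35%), with a median of -0.23. These shares are near the 26.9% higher and 30.8% lower among genes of at least 5 CPM. Over all genes tested the shares were 18.9% and 20.0%. Ptgs1, the constitutive cyclooxygenase, had 161, 114 and 82.3 in M1, against 1377, 1088 and 1291 in M2 (-3.43 ± 0.25, adjusted p = 1.28e-08). Ptgs2, the inducible one, averaged 74.8 ± 25.1 in M1 and 33.6 ± 16.4 in M2, and its call (1.23 ± 0.47, adjusted p = 0.0475) was lost without WT M1 replicate 2, WT M1 replicate 3 or WT M2 replicate 1. Ptges, which makes prostaglandin E2, had 1222, 1424 and 1591 in M1, against 109, 117 and 132 in M2 (3.55 ± 0.15), and Pla2g7 13516, 14662 and 18488 in M1, against 1514, 1249 and 1702 in M2. Of 17 purinergic receptors and ectoenzymes 7 rose (41.18%) and 4 fell (23.53%), with a median of 0.08. Cd38, which consumes NAD, had 4076, 3621 and 3629.9 in M1, against 172, 122 and 121 in M2 (4.78 ± 0.26), and P2ry1, an ADP receptor, had 44.6, 43.6 and 21.3 in M1, against 734, 779.5 and 871 in M2 (-4.48 ± 0.22). Adora2a, the adenosine receptor, rose (2.84 ± 0.25), and Entpd1, which degrades ATP, fell (-1.48 ± 0.17).

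Inflammasome and cell death genes rose for 16 of 30 and fell for 4 (median 0.52), with 1 fall with the WT libraries fitted alone, 7 falls when scaled by library totals and 2 without WT M1 replicate 1 or without WT M2 replicate 2. Nlrp3 had 754, 1073 and 1015 in M1, against 161, 194 and 201 in M2 (2.34 ± 0.15, adjusted p = 1.18e-09), Casp4, the sensor of cytosolic LPS, had 1333, 1321 and 1198 in M1, against 173, 159 and 170.1 in M2, and Mlkl, the effector of necroptosis, 2849, 2221 and 2349.9 in M1, against 363, 296 and 361 in M2. The survival gene Bcl2 fell (-1.39 ± 0.18), and the inflammasome adaptor gene Pycard averaged 1618 ± 322 in M1 and 1267 ± 126 in M2 and did not pass. NF-kB inhibitors and feedback genes rose for 20 of 25 and fell for 1 (median 1.18). Nfkbiz had 812, 1113 and 1030.2 in M1, against 33.3, 41.7 and 35.04 in M2 (4.704 ± 0.17), Nfkbia 6140.3, 5021 and 5821 in M1, against 689, 686 and 765 in M2, and Dusp4, a phosphatase of MAP kinases, had 75.8, 122 and 146 in M1, against 842, 1057 and 1254 in M2 (-3.22 ± 0.19).

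Proliferation genes were lower in M1. All 28 mitosis genes fell (median -1.64), against 20.0% of all genes tested. Mki67, the proliferation antigen, had 869.5, 601 and 783 normalized counts in WT M1, against 2833, 3832 and 3565 in WT M2 (-2.19 ± 0.18, adjusted p = 5.56e-08), and the spindle motor gene Kif11 had 196, 218 and 247 in M1, against 907, 1053 and 1156 in M2 (-2.23 ± 0.17). Of 30 replication and S phase genes 28 fell and 0 rose (median -1.41), with the helicase gene Mcm7 at 816, 759 and 786 in M1, against 2536, 2591 and 2862 in M2 (-1.76 ± 0.12) and the chromatin factor gene Uhrf1 at 446, 440.2 and 552 in M1, against 2049, 2361 and 2130.4 in M2 (-2.19 ± 0.15). Fanconi and homologous recombination genes fell for 19 of 26 and rose for 1 (median -1.05), among them Brca1 (-1.81 ± 0.15) and Blm (-1.79 ± 0.15). Among cell cycle brakes and growth regulators 6 of 18 rose and 6 fell (33.33% each). These shares are near the 26.9% higher and 30.8% lower among genes of at least 5 CPM. Ccnd1, the cyclin that growth factors induce, had 1609.8, 2349.9 and 2121 in M1, against 4466, 6487 and 5102 in M2 (-1.401 ± 0.15), Ccnd3 rose (1.12 ± 0.09), and Cdkn1a (p21) averaged 5564 ± 262 in M1 and 5386 ± 456 in M2 and did not pass. Apart from proliferation, cytosolic ribosomal protein genes fell for 22 of 85 (25.88%, beside 30.8% of genes of at least 5 CPM) and rose for 0 (median -0.23), with 7 falls with the WT libraries fitted alone, 39 falls when scaled by library totals and 48 without WT M1 replicate 1. They took 2.78 to 3.99% of reads in M1 and 4.06 to 5.10% in M2.

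**Figure D4:**
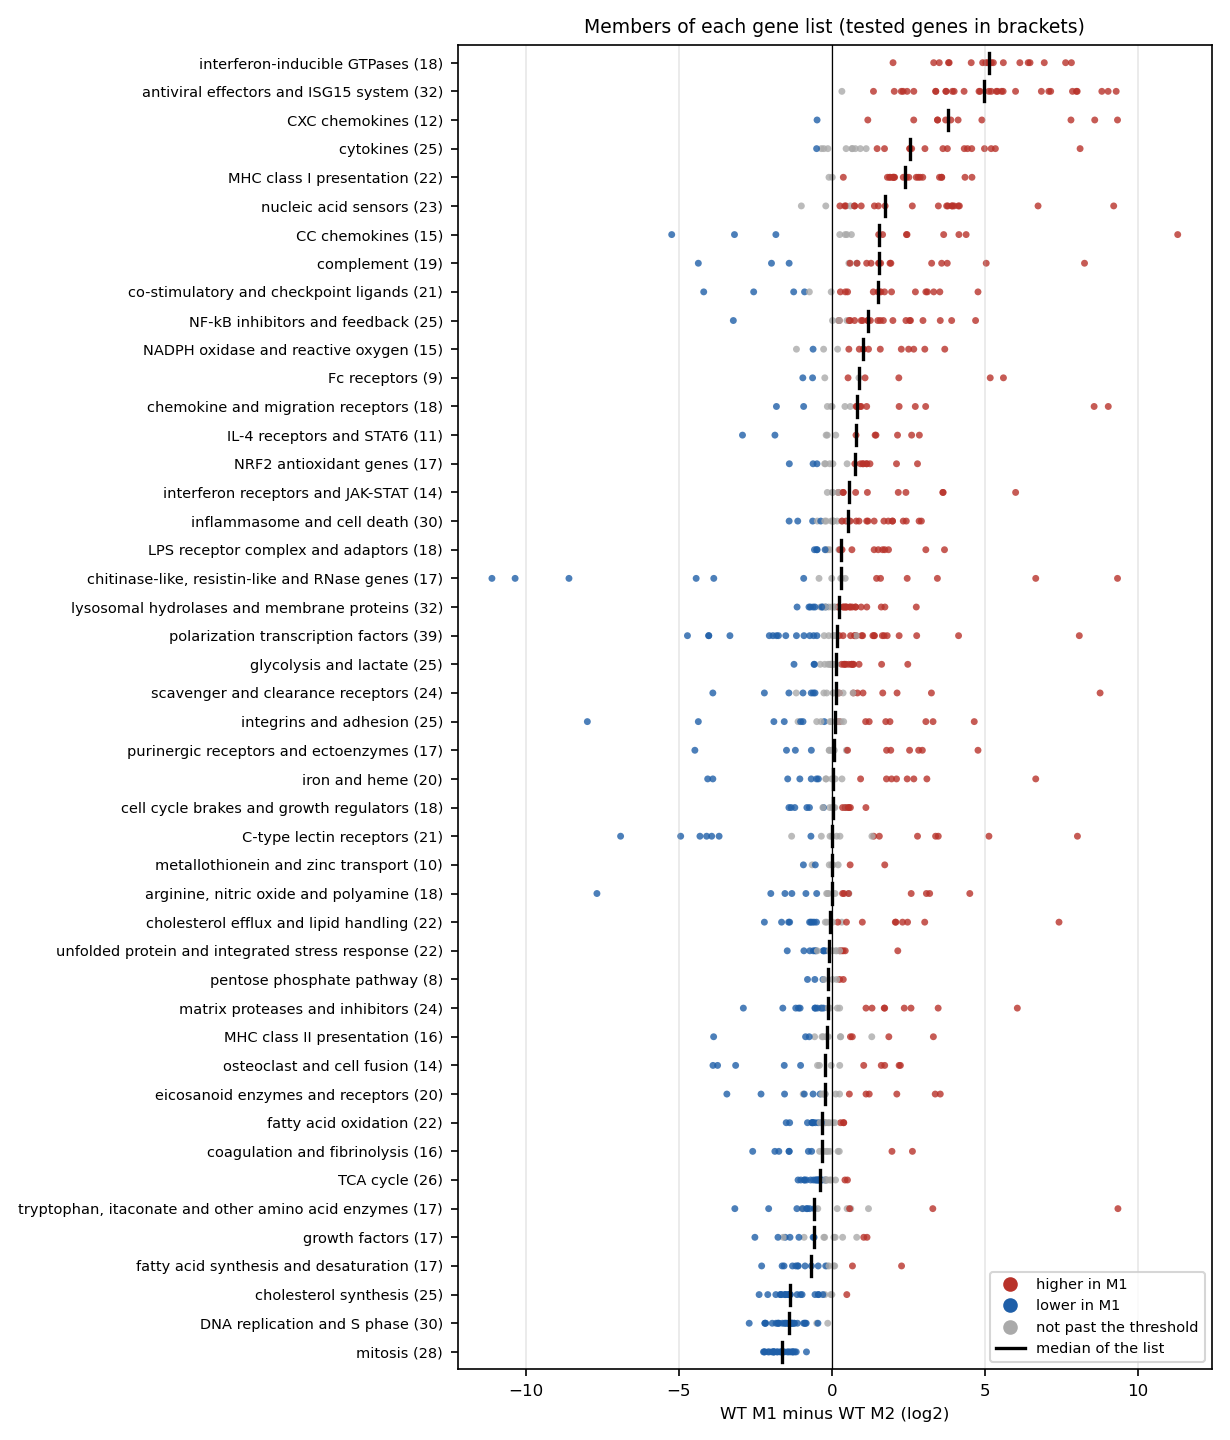
Each point is a tested gene of 1 of 46 lists, placed by WT M1 minus WT M2 (log2), red where called higher, blue where called lower and grey where not past the threshold, with the median of each list as a black bar. Medians run from 5.16 for interferon-inducible GTPases to -1.64 for mitosis, and lists such as C-type lectins spread to both sides of 0.

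Large families not chosen for polarization were counted beside the 18.9% of all genes higher and 20.0% lower. Of 313 solute carriers 72 rose and 70 fell (22.4%, and 44 with the WT libraries fitted alone), 53 and 90 when scaled by library totals, and 69 and 77 without WT M1 replicate 2. Slc13a3, a dicarboxylate carrier, had 3764, 6994 and 7333 in M1, against 58.5, 47.8 and 46.4 in M2 (6.81 ± 0.21, adjusted p = 8.99e-14), and the mitochondrial aspartate-glutamate carrier gene Slc25a13 had 93.6, 128 and 131 in M1, against 1003, 1078 and 1267 in M2 (-3.25 ± 0.14). Of 127 ion channel genes 14 rose (11.02%) and 25 fell (19.69%, and 13 with the WT libraries fitted alone), with Trpm2, an oxidant-gated channel, higher (2.94 ± 0.22) and Clcn3 lower (-2.14 ± 0.16). Of 377 Zfp genes 59 rose (15.65%) and 70 fell (18.57%), 26 and 24 with the WT libraries fitted alone, 30 and 97 when scaled by library totals and 55 and 50 without WT M1 replicate 1, with medians of -0.04 in the family and in all genes tested. Among 31 serpins 9 rose (29.03%) and 5 fell (16.13%), and 3 fell without WT M1 replicate 3 or without WT M2 replicate 1.

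M1 was also compared with M2 within each knockout. WT was set beside each knockout, whose M1 minus M2 difference comes from its own 3 and 3 libraries, while the estimate of the spread is shared by all groups. Of the 8303 WT calls, 6071 (73.1%) were called the same way in PGRN KO and 29 the other way, and 5495 (66.2%) the same way in 14-3-3e KO and 5 the other way. As shares of the knockouts' calls, these are 75.9% of 8002 in PGRN KO and 85.8% of 6407 in 14-3-3e KO. Over 10952 genes of at least 5 CPM, Pearson's r of the differences was 0.930 with PGRN KO and 0.946 with 14-3-3e KO, a description across genes. The WT difference itself differed from that in PGRN KO for 267 genes (1.25% of genes tested) and from that in 14-3-3e KO for 61 (0.286%) by the interaction term of the same fit. These counts rest on single libraries: the first was 659 without WT M1 replicate 1 and 157 without WT M2 replicate 2, and the second 192 without WT M1 replicate 2 and 9 without WT M2 replicate 1. WT values enter every such contrast, so genes that pass with both knockouts share the WT libraries.

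Grn, the gene lost in PGRN KO, rose in WT M1, with 91070.0, 81989 and 91739 normalized counts in WT M1, against 30086, 29365 and 34556 in WT M2 (1.496 ± 0.22, adjusted p = 4.84e-05). Ywhae, which encodes 14-3-3e, averaged 9305 ± 480.3 in M1 and 8739 ± 464 in M2 and did not pass. Among transcription factors, the fall of Klf4 was -3.33 in WT and -1.96 in PGRN KO, and that of Bhlhe40 -2.04 in WT and -3.14 in PGRN KO. The autophagy receptor gene Sqstm1 rose by 0.75 in WT and 1.53 in PGRN KO. Fcgr4 rose by 5.18 in WT and 3.33 in PGRN KO, and Cfb by 8.27 in WT and 10.82 in PGRN KO. Beside 14-3-3e KO, Il4ra rose by 2.87 in WT and 1.899 in 14-3-3e KO, Cd14 by 3.08 in WT and 4.33 in 14-3-3e KO, Ccl4 by 4.16 in WT and 2.53 in 14-3-3e KO, and Itgax differed by -4.36 in WT and -3.23 in 14-3-3e KO. None of these changes reversed between genotypes.

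**Figure D5:**
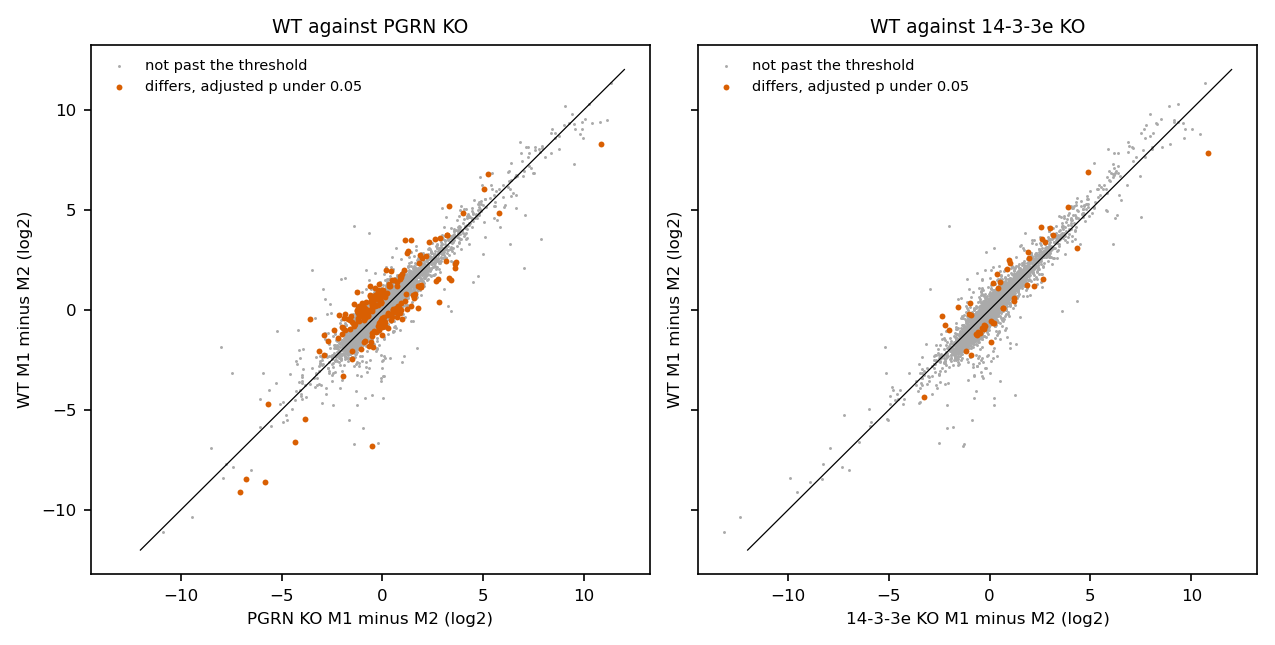
Each point is 1 of 10952 genes of at least 5 CPM, with M1 minus M2 (log2) in WT on the vertical axis and in PGRN KO (left panel) or 14-3-3e KO (right panel) on the horizontal axis, and the line marks equality. Genes whose difference passed as unequal are orange, among 267 for PGRN KO and 61 for 14-3-3e KO over all genes tested, and most points lie along the line.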

How the data were processed

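RNA was sequenced from 18 mouse macrophage libraries on Illumina instruments, per the labels' protocols. The submitters' processing notes name STAR, RSEM 1.3.1, DESeq2 and GRCh38; the gene IDs are mouse IDs, so that build is not used here. The authors deposited log2 values, each log2(normalized count + 1). They turn back into whole reads for 100% of genes (within 0.1 read), which gave depth, CPM (libraries scaled to the same total) and size factors. GENCODE M21 (GRCm38) named 42425 of the 43309 IDs. No mitochondrial gene was in the table.

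All 6 groups entered a single fit in limma 3.58.1 (R 4.3.3, trended and robust variance, pseudocount 1), for genes that reached a normalized count of 1 in 3 or more libraries. Fold changes are log2 ± standard error with n = 3 libraries a group, and understate changes of low genes. Normalized counts are not divided by gene length, so they compare libraries, not genes. Lower bounds put 3 reads in each library of the group without reads and cover counting error only.

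The genes named are the 15 largest rises and falls with separate groups and at least 5 CPM, and from each list up to 8 calls each way by p and up to 3 high members that did not pass; Xist, Ddx3y and any other gene were chosen after their values were seen. Certain genes picked by this rule are left out of the text. Members and lists were chosen with earlier results of these data known. Clec6a, Gbp5, Gbp6, Gbp10 and Mnda were not matched by ID and not analysed here. RefSeq promoter windows (GRCm38.p6) were searched on both strands, with the first window of a gene where it had several, in the 100 largest called rises and falls of at least 5 CPM. In a simulation of 20839 genes, tested as WT M1 against WT M2, 95% of 2-fold and 100% of 4-fold changes were recovered. In it 38 unchanged genes passed. These rates hold for the spread set in the simulation. They may not hold for the spread of the WT libraries or for genes with few reads. Alternatives changed the pseudocount, filter, scaling, depth, model or samples. Same-numbered M1 and M2 libraries are not stated to share an animal. Python 3.11.15 with pandas 2.3.3 prepared tables.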

Additional observations from a re-analysis of the deposited data

Results flagged for a closer look

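Of the genes named in the report, 21 passed the interaction test against PGRN KO and 6 against 14-3-3e KO, so that M1 minus M2 (log2) in WT differed from M1 minus M2 in the knockout. Each difference is WT minus knockout, by limma with Benjamini-Hochberg adjustment over all genes tested. Against PGRN KO these were the transcription factors Klf4 (-3.33 in WT, -1.96 in the knockout, difference -1.37 ± 0.26, adjusted p = 0.0176), Egr2 (-4.72 in WT, -5.68 in the knockout, difference 0.96 ± 0.20, adjusted p = 0.0239), Bhlhe40 (-2.04 in WT, -3.14 in the knockout, difference 1.10 ± 0.12, adjusted p = 0.000368) and Tfec (-1.81 in WT, -0.68 in the knockout, difference -1.13 ± 0.18, adjusted p = 0.00724). The receptor, membrane protein and carrier genes were Fcgr4 (5.18 in WT, 3.33 in the knockout, difference 1.86 ± 0.24, adjusted p = 0.0012), Ms4a7 (3.37 in WT, 2.29 in the knockout, difference 1.08 ± 0.11, adjusted p = 0.000254), Cd9 (-1.55 in WT, -2.705 in the knockout, difference 1.15 ± 0.15, adjusted p = 0.0012) and Slc13a3 (6.81 in WT, 5.23 in the knockout, difference 1.58 ± 0.29, adjusted p = 0.0151). The metabolic genes were Psat1 (-2.06 in WT, -1.504 in the knockout, difference -0.56 ± 0.11, adjusted p = 0.0228), Sdhb (0.43 in WT, 1.12 in the knockout, difference -0.69 ± 0.15, adjusted p = 0.031), Acsl1 (2.28 in WT, 3.62 in the knockout, difference -1.34 ± 0.29, adjusted p = 0.0331) and Abcg1 (-0.72 in WT, -0.11 in the knockout, difference -0.61 ± 0.13, adjusted p = 0.026). Genes of complement, coagulation, progranulin and autophagy were Cfb (8.27 in WT, 10.82 in the knockout, difference -2.56 ± 0.44, adjusted p = 0.014), F7 (-1.86 in WT, -0.46 in the knockout, difference -1.401 ± 0.20, adjusted p = 0.0025), Grn (1.496 in WT, 3.397 in the knockout, difference -1.901 ± 0.31, adjusted p = 0.00974) and Sqstm1 (0.75 in WT, 1.53 in the knockout, difference -0.78 ± 0.11, adjusted p = 0.0025). Grn is the gene deleted in PGRN KO, where it had 85 to 498 reads in M1 libraries and 21 to 71 in M2 libraries.

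In genes with few reads in WT M1 the WT difference depends on the pseudocount. These were Msx3 (-9.11 in WT, -7.08 in the knockout, difference -2.03 ± 0.33, adjusted p = 0.00817), Chil4 (-8.59 in WT, -5.83 in the knockout, difference -2.76 ± 0.43, adjusted p = 0.00491) and Cldn11 (-8.45 in WT, -6.78 in the knockout, difference -1.67 ± 0.38, adjusted p = 0.039), which had no read in WT M1, and Lipn (-6.58 in WT, -4.31 in the knockout, difference -2.27 ± 0.48, adjusted p = 0.0296) and Impdh2-ps (-6.805 in WT, -0.52 in the knockout, difference -6.29 ± 1.25, adjusted p = 0.0286). Against 14-3-3e KO the receptor and chemokine genes were Il4ra (2.87 in WT, 1.899 in the knockout, difference 0.97 ± 0.17, adjusted p = 0.0312), Cd14 (3.08 in WT, 4.33 in the knockout, difference -1.26 ± 0.23, adjusted p = 0.0323), Ccl4 (4.16 in WT, 2.53 in the knockout, difference 1.63 ± 0.26, adjusted p = 0.0232) and Itgax (-4.36 in WT, -3.23 in the knockout, difference -1.13 ± 0.21, adjusted p = 0.0315). The metabolic genes were Psat1 (-2.06 in WT, -1.15 in the knockout, difference -0.91 ± 0.11, adjusted p = 0.00177) and Pfkp (-1.23 in WT, -0.65 in the knockout, difference -0.58 ± 0.11, adjusted p = 0.0315). Psat1, the serine synthesis enzyme, passed against both knockouts, which are set against the same WT libraries. Groups of 3 libraries were not screened for single outlying values.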

How the results depend on the processing

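Under the alternatives run, no gene called in the 6-group fit was called in the opposite direction. The number of calls, of 8303, stayed within 1.5 times except in a fit of the 6 WT libraries alone. There 5202 of 21080 genes passed (2632 higher and 2570 lower), so list counts from that fit stand beside a smaller share of all genes. Of calls over 2-fold, 3599, 2181 were left where genes needed at least 5 CPM in at least 3 libraries. Calls higher in M1 were 3452 to 4158 and calls lower in M1 3796 to 4774 when 1 library was left out. With the replicate number as a block, 4050 and 4329 passed; the numbers are not stated to pair samples, and same-numbered WT libraries deviated together in replicate 1 (0.348) but not in replicates 2 (0.0134) and 3 (-0.355). At an adjusted p of 0.01, 3049 and 3188 passed. Other splits were 3861 higher and 4322 lower with a pseudocount of 0.1, 4042 and 3506 with limma-voom on the recovered reads, which moved the median of all genes to 0.16, and 3133 and 3329 with reads thinned to 5157638 per library. Chosen after seeing the data were 2 further alternatives: without the 2 libraries richest in ribosomal RNA-like reads 3892 and 4371 passed, and without the 2 replicate 1 libraries 3804 and 3978.

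The 267 differences between WT and PGRN KO became 136 with thinned reads, 424 without the replicate 1 libraries and 157 (without WT M2 replicate 2) to 659 (without WT M1 replicate 1) when 1 library was left out. The 61 between WT and 14-3-3e KO became 15 with limma-voom, 28 with thinned reads, 37 when scaled by library totals, 120 without the 2 libraries with most ribosomal RNA-like reads, 32 without the replicate 1 libraries and, when 1 library was left out, 192 without WT M1 replicate 2, 27 without WT M1 replicate 3, and 9, 23 and 24 without WT M2 replicates 1, 2 and 3. Socs1, at 0.02 and not called, ranged from -0.36 without WT M1 replicate 1 (adjusted p = 0.0174) to 0.23 without WT M1 replicate 3, and was -0.38 without both replicate 1 libraries (adjusted p = 0.0269). The rule for naming genes picked 831, called or not, and not all of them are named here. Of these, 67 no longer passed with the WT libraries fitted alone, the most of any alternative. In the others 2 to 36 no longer passed, except with the filter at 5 CPM, where 0 did. Of 134 list counts, 23 moved by over 1.5 times with the WT libraries fitted alone and 0 to 19 in the others. Among these 23 were the respiratory chain (4 rises and 5 falls, of 13 and 11 with all groups), ribosomal protein falls (7 of 22), Zfp genes (26 and 24, of 59 and 70), lysosomal falls (3 of 8) and stress response genes (2 and 5, of 5 and 9).

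For promoters, the interferon core was in 27.3% of windows of the 300 largest rises. The E2F form was in 15.6% of windows of the 300 largest falls and 2.20% of the 300 largest rises, beside 8.74% of all genes. CCAAT was in 48.95% of those falls and 32.6% of those rises, beside 38.5% of all genes. In the 150 bases before the start the Stat6 spacing was in 2 of 78 windows of rises (2.56%) and 6 of 72 of falls (8.33%). In that window CCAAT was in 21.8% of rises and 26.4% of falls. The interferon core was there in 34.6% of rises and 1.39% of falls, and TTCNNNGAA in 12.8% of rises and 1.39% of falls. In all genes that window held the interferon core in 1.65%, TTCNNNGAA in 3.296%, the Stat6 spacing in 2.098%, kappa B in 0.782%, E2F in 4.86% and CCAAT in 28.4%. The cause of these shifts was not tested, apart from the shorter window, which holds fewer bases. Depth limits genes below 4.46 normalized counts in WT M1 replicate 1.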
